A study of Sus scrofa with 6 samples.

Results

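The members are the 38 collagen genes among the 30477 genes in the deposited expression table of pig abdominal aorta. A row was a member if it was annotated as protein coding and its gene name was COL, a type number, A and a chain number. By class, 10 members encode fibrillar chains, 5 basement membrane (type IV) chains, 8 FACIT chains (fibril-associated collagens with an interrupted helix) and 15 other chains. RNA was sequenced from the abdominal aorta of male Wuzhishan miniature pigs fed normal chow (NC, 3 libraries) or a diet rich in fat, cholesterol and fructose (HFCF, 3 libraries), each for 6 months. The labels give an age of 3 to 4 months in both groups, and the methods of the study give an older age. The HFCF diet added shortening, egg yolk powder, cholesterol and fructose to normal chow. It also had a higher energy density and lower shares of energy from protein and carbohydrate. The effects of these changes in feed cannot be told apart. The libraries are numbered within each diet, but the labels do not say that each came from a different pig, so the p-values below measure the spread between these libraries, which may be technical.

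Collagens are secreted proteins whose α chains wind into helical trimers, and they make up much of the extracellular matrix of the arterial wall. Fibrillar collagens, above all types I and III, give the wall its tensile strength, and type IV collagen forms the sheet-like network of the basement membrane around smooth muscle cells and under the endothelium. FACIT collagens sit on the surface of fibrils, and the other classes build microfilaments, short-chain networks, or anchors that span the cell membrane. In atherosclerosis, smooth muscle cells and fibroblasts are known sources of the collagen that surrounds and caps the lesion.

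Expression is given as FPKM (fragments per exon length and per mapped reads of the library), which allows levels to be compared between genes per length. The FPKM values of all genes summed to 279733, 287141 and 272207 in the NC libraries and to 338690, 336015 and 330222 in the HFCF libraries. Read totals are not known. Steps between low FPKM values gave depths of 1, 1.09 and 1.37 in the NC libraries and of 1.02, 1.05 and 1.07 in the HFCF libraries, relative to the first NC library. Groups were compared as log2(FPKM + 0.1), a scale that makes the fold change of low genes too small, with limma over the 15384 genes with a mean of at least 0.1 FPKM. A gene was called at an adjusted p under 0.05 (Benjamini-Hochberg over those 15384 genes). The median log2 fold change (HFCF against NC) of all tested genes was 0.32, so a value below 0.32 is low relative to the typical gene of these libraries. Under 3 other scalings of the libraries it was 0.00 (median-ratio), -0.06 (quantile) and 0.08 (TPM).

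The 2 groups also differed in markers of the cells that make collagen. Among 8 markers of contractile smooth muscle, 5 (ACTA2, MYH11, CNN1, SMTN and MYOCD) were called lower in the HFCF group, against 6.16% of all tested genes. The count was 1 (MYOCD) without NC1, 3 without NC2, 3 without HFCF1, 2 without HFCF2, 2 with no filter and 6 under each of the 3 scalings. The sum of all 8 was 21460, 17380 and 15220 FPKM in the NC libraries and 7703, 9326 and 12450 in the HFCF libraries, with no overlap. All 8 macrophage markers were called higher (7 of 8 under each of the 3 other scalings described above, and MRC1 in 3 of 15 alternatives), with sums of 31.5 to 35.5 FPKM in the NC group and 418.6 to 1014 in the HFCF group. Of 7 fibroblast markers with a row, 1 (LUM, a fibril-binding proteoglycan) was called higher. For both lists, the share of all tested genes called higher was 22.8%. None of the 8 endothelial markers was called by limma, with 1 at an unadjusted p under 0.05, and their sums were 138.7 to 251.4 in the NC group and 114.7 to 285.5 in the HFCF group. Adipocyte markers summed to 102.0 and 153.6 FPKM in NC1 and NC2 and to 11.1 to 31.96 in the other libraries, so that NC1 and NC2 stood apart. Of the 6 adipocyte markers, 1 (PLIN4) was called lower, against 6.16% of all tested genes. The PLIN4 call was lost without NC1, NC2, NC3, HFCF1 or HFCF2. Without NC3, 4 others (ADIPOQ, PLIN1, CIDEC and LIPE) were called lower. In whole tissue, fewer cells of a type and less RNA per cell cannot be told apart.

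Collagen mRNA was abundant in both groups and spanned a wide range of levels. The 38 members together made up 2.35%, 2.68% and 1.98% of the summed FPKM in the NC libraries and 1.25%, 1.57% and 2.18% in the HFCF libraries, and the 2 groups overlapped. Their summed FPKM was 6553 ± 1162 (SD, n = 3) in the NC group and 5567 ± 1500 in the HFCF group. In at least 1 group, 19 members had a mean of 10 FPKM or more, and 9 of them had a mean of 100 FPKM or more. COL3A1, COL1A1 and COL1A2 held the highest levels in both groups. A further 2 members, COL10A1 (a chain of growth plate cartilage) and COL25A1 (a transmembrane chain), were listed at 0 in all 6 libraries.

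**Figure D1:**
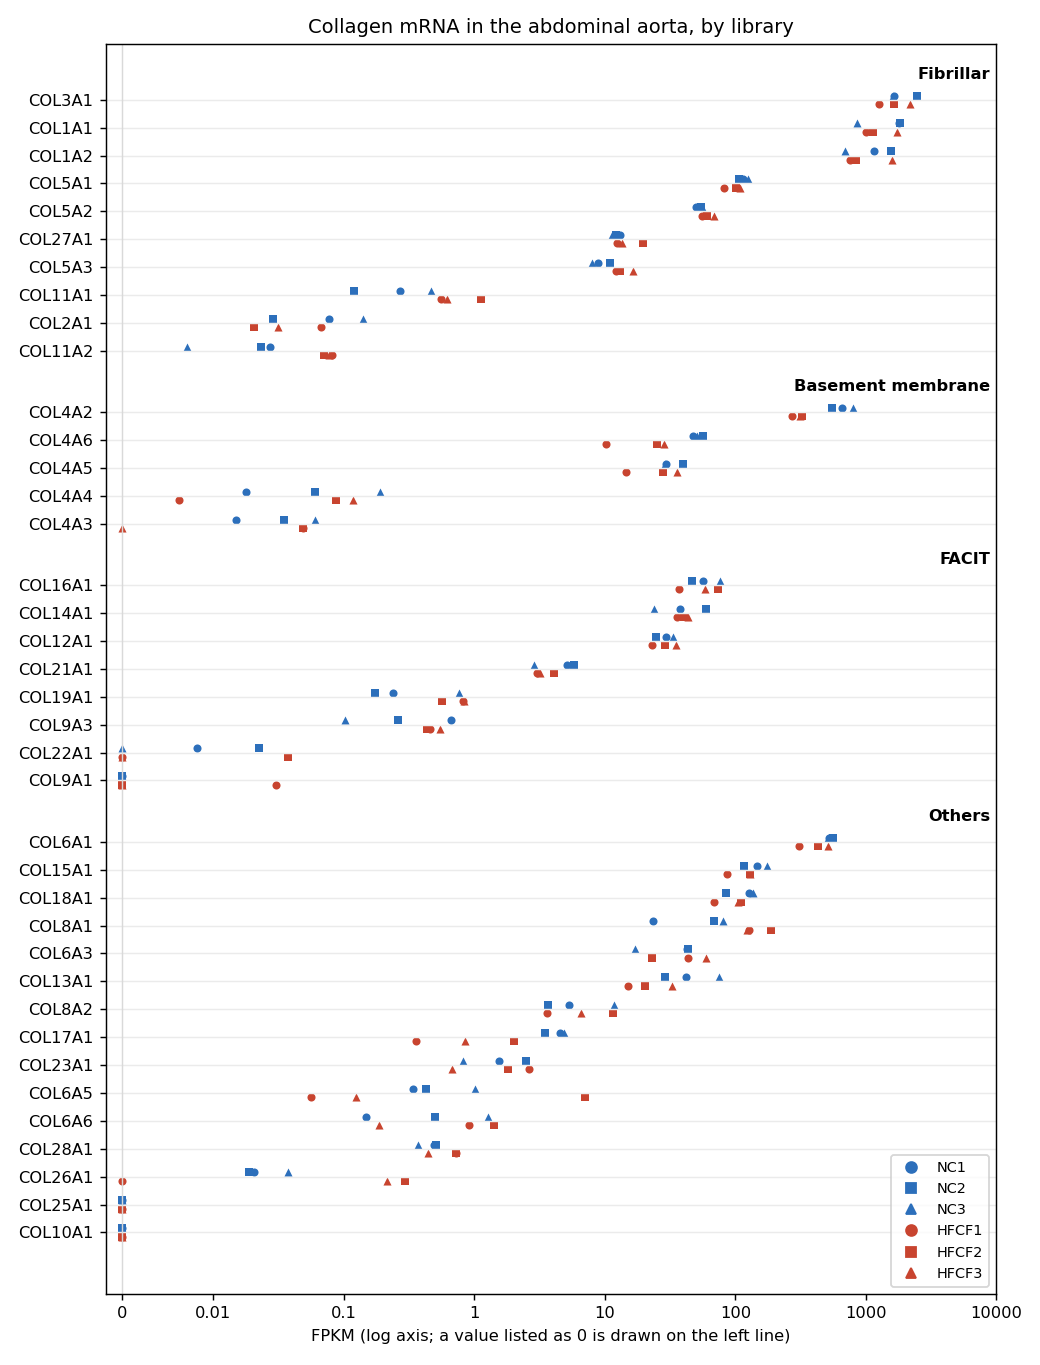
Expression of the 38 collagen genes in each library (horizontal log axis, FPKM), by class and in order of mean level, with blue for NC, red for HFCF and a marker shape for each replicate number; a value listed as 0 sits on the left line. The HFCF points of COL4A2, COL4A6 and COL17A1 lie to the left of all their NC points.

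Of the 38 members, 29 passed the filter on low values and were tested, and 9 did not pass it (COL2A1, COL11A2, COL4A3, COL4A4, COL9A1, COL22A1, COL26A1, COL10A1 and COL25A1). A total of 4 tested members were called, against 28.9% of all tested genes. COL8A1 was the 1 member called higher, against 22.8% of all tested genes, and COL4A2, COL4A6 and COL17A1 were the 3 called lower, against 6.16%. The other 25 were not called. By the fold limits of the study (group mean ratio over 2 or under 0.5, with an unadjusted p under 0.05), 2 members were higher (COL8A1 and COL11A1), against 20.7% of all tested genes, and 4 were lower (COL4A2, COL4A6, COL13A1 and COL17A1), against 4.82%. The NC and HFCF values did not overlap in 4 tested members that were higher in the HFCF group (COL5A2, COL5A3, COL11A1 and COL8A1), against 36.1% of all tested genes, and in 3 that were lower (COL4A2, COL4A6 and COL17A1), against 12.1%.

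The log2 fold changes of the 29 tested members ran from -2.17 to 1.5 with a median of -0.02, which is -0.34 relative to the median of all tested genes. As deposited, 16 of the 29 were below 0, and under the other scalings the number was 22 (median-ratio), 21 (quantile) and 20 (TPM). Relative to the median of all genes, 22 of the 29 were lower. The median was 0.06 in the 8 fibrillar members tested (range -0.25 to 1.21), -1.13 in the 3 basement membrane members (-1.41 to -0.41), 0.03 in the 6 FACIT members (-0.37 to 0.95) and 0.00 in the 12 others (-2.17 to 1.5).

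**Figure D2:**
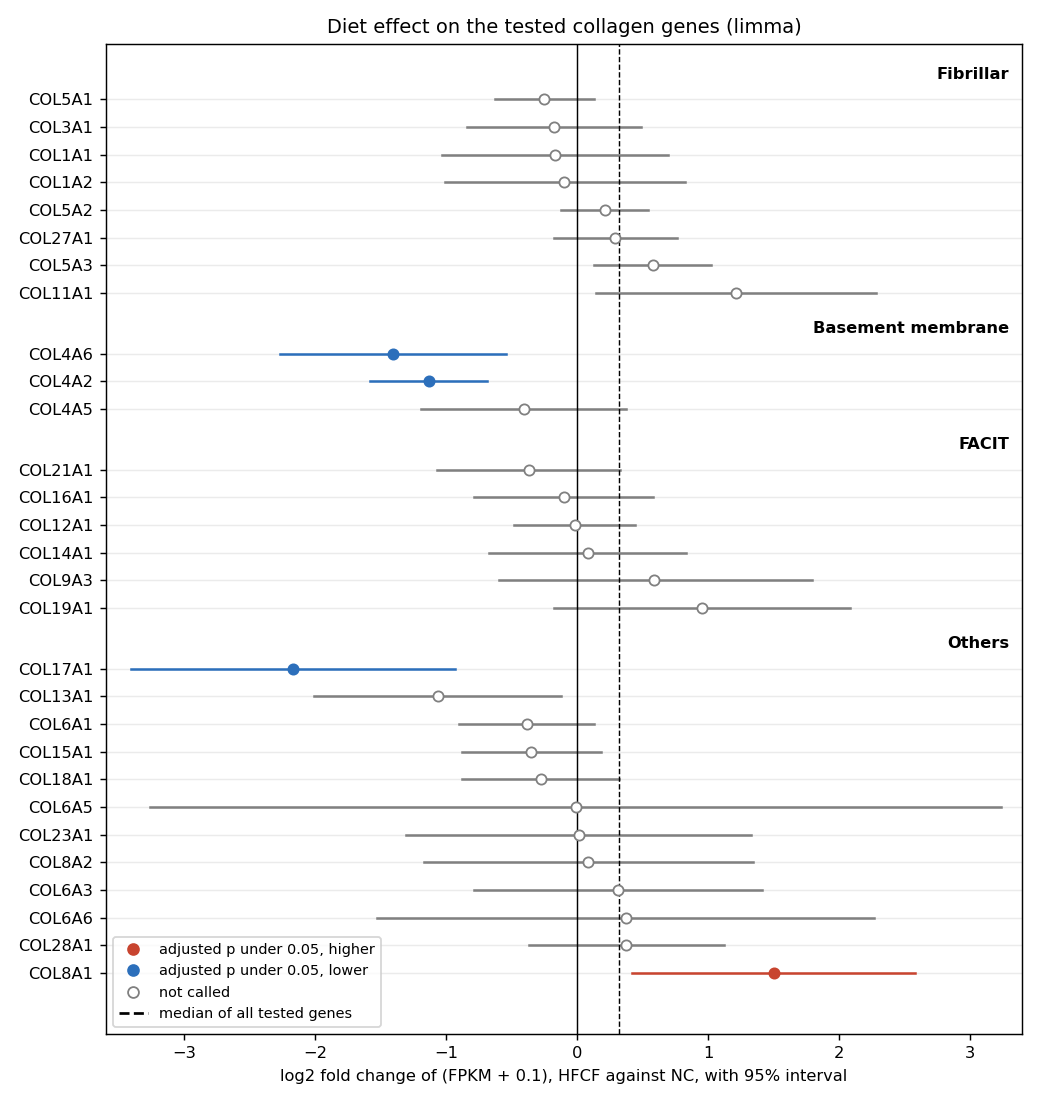
Log2 fold change of FPKM + 0.1 (HFCF against NC, horizontal axis) of the 29 tested collagen genes, with the 95% interval from limma, by class; filled points are called, open points are not, and the dashed line marks the median of all tested genes at 0.32. The intervals of COL4A6, COL4A2 and COL17A1 lie below 0, that of COL8A1 lies above it, and most of the others span it.

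Of the 3 basement membrane members tested, 2 were called lower in the HFCF group, against 6.16% of all tested genes. Type IV trimers are built from the α1 and α2 chains in almost every basement membrane, and from α3 to α6 chains in particular tissues. COL4A2 (ENSSSCG00000009545), the α2 chain, was at 659.3, 548.8 and 796.2 FPKM in the NC libraries and at 271.8, 322.2 and 312.5 in the HFCF libraries. Every HFCF library was below every NC library, and the group means were 668.1 ± 123.9 and 302.2 ± 26.7 (SD, n = 3 each). The log2 fold change was -1.13 (SE 0.19, 95% interval -1.58 to -0.69, adjusted p = 0.00656, limma), or -1.45 relative to all genes, and COL4A2 was called under all 15 alternatives tried, with adjusted p from 0.00387 to 0.0335.

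COL4A6 (ENSSSCG00000012571), a chain found in the basement membrane of smooth muscle, was at 47.3, 56.8 and 50.5 FPKM in the NC libraries and at 10.24, 25.0 and 28.2 in the HFCF libraries. The groups did not overlap, and HFCF1 was the lowest library by a wide margin. COL4A6 fell by 1.41 on the log2 scale (SE 0.37, 95% interval -2.27 to -0.54, adjusted p = 0.0292). Without HFCF1 the log2 fold change was -0.95 (adjusted p = 0.0113), and the call was lost without NC1, NC2 or NC3 (adjusted p = 0.0845, 0.0881 and 0.0717). COL4A5 (ENSSSCG00000012572), its neighbour in the genome and partner in the trimer, was at 29.5, 39.5 and 29.0 FPKM in the NC libraries and at 14.5, 27.8 and 35.6 in the HFCF libraries. These values overlapped, with HFCF3 above 2 of the NC libraries, and COL4A5 was not called (log2 fold change -0.41, 95% interval -1.19 to 0.37, adjusted p = 0.383). COL4A3 and COL4A4, chains of the kidney glomerulus among other sites, stayed at or below 0.0602 and 0.189 FPKM in every library and were not tested.

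The α1 chain has no name in the deposited table and so is not a member, but its gene identifier (ENSSSCG00000044700) is that of COL4A1. It was at 640.2, 501.0 and 652.4 FPKM in the NC libraries and at 341.4, 418.2 and 387.6 in the HFCF libraries. All 3 HFCF values were below all 3 NC values, and COL4A1 fell by 0.64 on the log2 scale (SE 0.18, 95% interval -1.06 to -0.22, adjusted p = 0.0352). The call held in 7 of 15 alternatives, with adjusted p from 0.0121 to 0.122. Among the alternatives that lost it were the fits without NC1, NC3, HFCF1, HFCF2 or HFCF3 (adjusted p = 0.122, 0.0938, 0.0804, 0.0726 and 0.0766), with no filter and without a variance trend.

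Summed over the 5 basement membrane members, expression was 752.5 ± 116.2 FPKM in the NC group and 349.4 ± 45.7 in the HFCF group, a ratio of 0.464 with no overlap. That sum leaves out COL4A1, which is no member and fell less (597.9 ± 84.1 and 382.4 ± 38.7 FPKM, a ratio of 0.640). The contractile smooth muscle markers, whose sums are given above, were lower in the same libraries, with a ratio of 0.545, and the macrophage markers were higher. Per 1000 FPKM of the summed smooth muscle markers, a measure chosen after the data had been seen, COL4A2 was at 30.7, 31.6 and 52.3 FPKM in the NC libraries and at 35.3, 34.5 and 25.1 in the HFCF libraries. On that measure the groups overlapped for COL4A2, and also for COL4A6 (2.21 to 3.32 against 1.33 to 2.68) and COL4A1 (28.8 to 42.9 against 31.2 to 44.8). Per 1000 FPKM of MYH11 alone, COL4A1 was at 273.1 to 304.9 in the NC group and 319.7 to 452.3 in the HFCF group, without overlap, and COL4A2 overlapped (299.2 to 372.1 against 257.8 to 348.4). The part of the smooth muscle and macrophage content in these results was not tested.

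**Figure D3:**
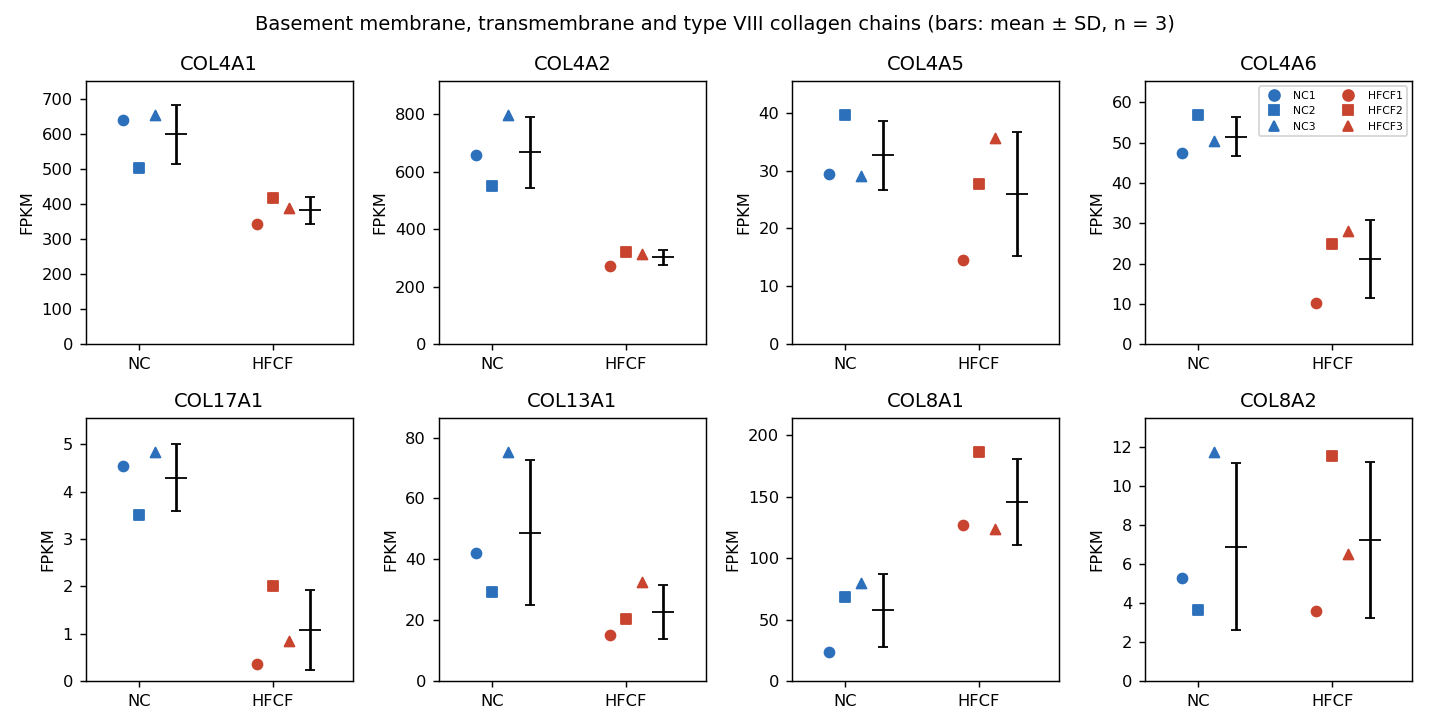
FPKM of 8 basement membrane, transmembrane and type VIII chains in each library (vertical axes from 0), with blue for NC, red for HFCF, a marker shape for each replicate number and bars for the group mean ± SD (n = 3). COL4A1, COL4A2, COL4A6 and COL17A1 are lower and COL8A1 is higher in every HFCF library than in every NC library, while COL4A5, COL13A1 and COL8A2 overlap.

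Among the collagens that span the cell membrane, COL17A1 fell and the others were not called. COL17A1 (ENSSSCG00000010607), best known from the hemidesmosomes that fix epithelia to their basement membrane, was at 4.55, 3.50 and 4.84 FPKM in the NC libraries and at 0.357, 2.01 and 0.844 in the HFCF libraries. All HFCF values were below all NC values, with the lowest in HFCF1. The log2 fold change of -2.17 (SE 0.53, 95% interval -3.41 to -0.93, adjusted p = 0.0225) was the lowest of the 29 tested members. With a pseudocount of 1 it was -1.42, and the call was lost without NC1, NC2, NC3 or HFCF3 (adjusted p = 0.0837, 0.0557, 0.0672 and 0.0564). Markers of epithelium (the known home of this chain) and mesothelium summed to 0.989 to 2.71 FPKM in the NC group and 1.93 to 4.75 in the HFCF group, over the 5 markers with a row. Of these, 3 passed the filter and 1 (CDH1) was called higher, against 22.8% of all tested genes. That call held in 2 of 14 alternatives and under none of the 3 other scalings. KRT5 was listed at 0 in 5 of the libraries. Per 1000 FPKM of smooth muscle markers, COL17A1 was at 0.201 to 0.318 in the NC group and 0.0464 to 0.215 in the HFCF group, with overlap.

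COL13A1 (ENSSSCG00000010256), a transmembrane chain of cell adhesion sites, was at 42.0, 29.1 and 75.2 FPKM in the NC libraries and at 15.1, 20.5 and 32.4 in the HFCF libraries. The groups overlapped through NC2 and HFCF3, and NC3 was the highest library. COL13A1 was not called (log2 fold change -1.06, 95% interval -2.01 to -0.12, adjusted p = 0.0867), and without NC3 the log2 fold change was -0.70 (adjusted p = 0.202). It was called lower after median-ratio scaling (adjusted p = 0.0426). COL23A1, another transmembrane chain, had group means of 1.62 ± 0.837 and 1.70 ± 0.973 FPKM (log2 fold change 0.01, adjusted p = 0.992).

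Type VIII collagen, a short-chain collagen that forms networks in vessels and under the endothelium, held the member that rose. COL8A1 (ENSSSCG00000011973), its α1 chain, was at 23.4, 68.7 and 80.0 FPKM in the NC libraries and at 127.3, 186.4 and 123.6 in the HFCF libraries. Every HFCF library was above every NC library, and the means were 57.4 ± 29.95 and 145.8 ± 35.2 FPKM. The log2 fold change was 1.5 (SE 0.46, 95% interval 0.42 to 2.58, adjusted p = 0.0467), or 1.18 relative to all genes. Without NC1, the lowest library, it was 0.95 (adjusted p = 0.0499). The call held in 5 of 15 alternatives, with adjusted p from 0.0417 to 0.128. It was lost without NC2, HFCF1, HFCF2 or HFCF3 (adjusted p = 0.0695, 0.0936, 0.128 and 0.08), with a pseudocount of 1, with no filter, without a variance trend and under the 3 scalings, whose log2 fold changes were 1.14, 1.41 and 1.24. COL8A2, the α2 chain, was at 5.29, 3.64 and 11.7 FPKM in the NC libraries and at 3.59, 11.5 and 6.52 in the HFCF libraries. Its groups overlapped over their whole range, and the log2 fold change of 0.08 (95% interval -1.17 to 1.34, adjusted p = 0.92) was negative under each of the 3 scalings.

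The abundant fibrillar chains were not called. COL3A1, the only chain of type III collagen, was at 1646, 2450 and 1615 FPKM in the NC libraries and at 1258, 1654 and 2171 in the HFCF libraries. COL1A1, the α1 chain of type I collagen, was at 1798, 1830 and 853.4 FPKM in the NC libraries and at 1009, 1127 and 1743 in the HFCF libraries. COL1A2, its α2 chain, was at 1157, 1546 and 690.1 FPKM in the NC libraries and at 757.4, 846.8 and 1579 in the HFCF libraries. In all 3 genes the groups overlapped, NC3 was the lowest NC library and HFCF1 the lowest HFCF library, and HFCF3 was the highest HFCF library. The log2 fold changes were -0.18 for COL3A1 (95% interval -0.84 to 0.49, adjusted p = 0.673), -0.17 for COL1A1 (-1.03 to 0.69, adjusted p = 0.76) and -0.10 for COL1A2 (-1.01 to 0.82, adjusted p = 0.874). On the deposited scale, these intervals leave room for a change in type I collagen of about 1 log2 unit lower, or of 0.69 (COL1A1) to 0.82 (COL1A2) higher. Under the 3 other scalings the log2 fold changes were lower, without a call. They were -0.57 to -0.44 for COL3A1, -0.62 to -0.43 for COL1A1 and -0.54 to -0.36 for COL1A2.

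Summed over the 10 fibrillar members, expression was 4787, 6010 and 3359 FPKM in the NC libraries and 3187, 3824 and 5701 in the HFCF libraries, a ratio of group means of 0.898. With each library left out in turn, the ratio ran from 0.743 (without HFCF3) to 1.04 (without NC2), and it was 0.704 after median-ratio scaling and 0.755 on the TPM scale. The fibroblast markers summed to 570.5, 920.8 and 430.0 FPKM in the NC libraries and to 673.8, 693.2 and 1169 in the HFCF libraries, so that within each group the libraries stood in the same order as for the fibrillar sum. Per unit of the fibroblast marker sum, a measure chosen after the data had been seen, the fibrillar sum was 8.39, 6.53 and 7.81 in the NC libraries and 4.73, 5.52 and 4.88 in the HFCF libraries, lower without overlap. LUM, which rose, is 1 of these markers. Per unit of DCN (decorin) alone, the ratios were 9.79 to 13.8 in the NC group and 7.57 to 9.87 in the HFCF group, with overlap. The part of the fibroblast content in the fibrillar levels was not tested.

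**Figure D4:**
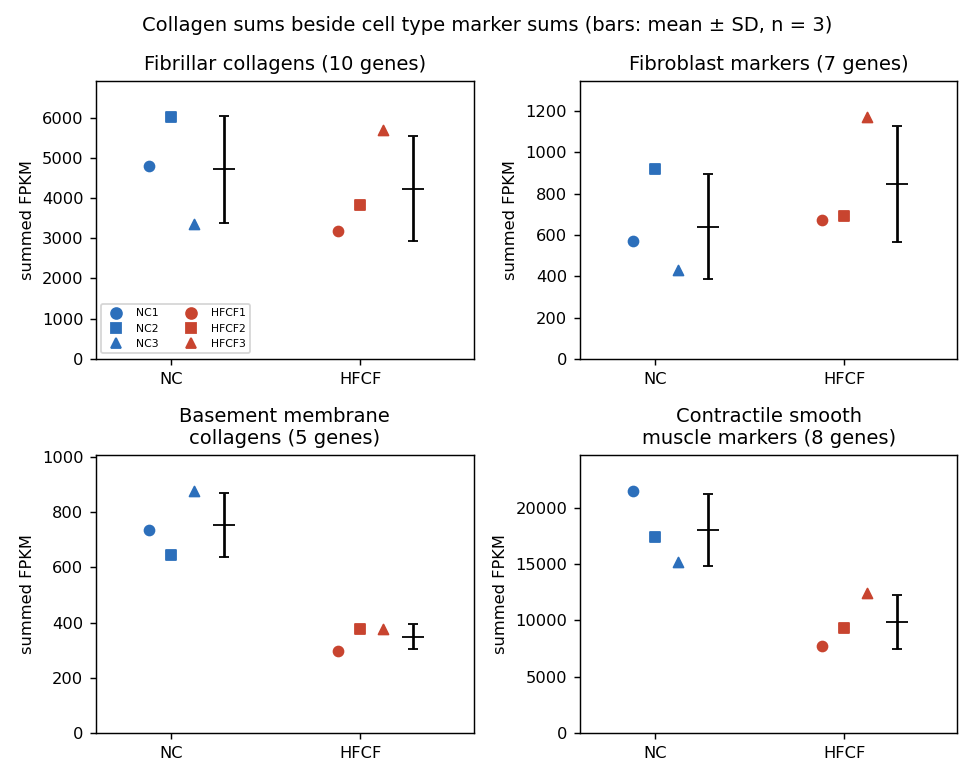
Summed FPKM in each library (vertical axes from 0) of the fibrillar and basement membrane collagens, on the left, and of the fibroblast and contractile smooth muscle markers, on the right, with bars for the group mean ± SD (n = 3). The basement membrane and smooth muscle sums are lower in all HFCF libraries, while the fibrillar and fibroblast sums overlap between the groups.

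Type V collagen, a minor fibrillar collagen that starts fibrils and limits their width, had 3 members. COL5A1, the α1 chain, was at 114.1, 105.8 and 124.8 FPKM in the NC libraries and at 81.2, 101.6 and 108.5 in the HFCF libraries. COL5A2, the α2 chain, was at 49.5, 54.6 and 55.36 FPKM in the NC libraries and at 55.38, 60.5 and 69.0 in the HFCF libraries. COL5A3, the α3 chain, was at 8.88, 10.95 and 7.98 FPKM in the NC libraries and at 12.1, 13.2 and 16.4 in the HFCF libraries. COL5A1 overlapped between the groups through HFCF3, COL5A2 nearly met (NC3 and HFCF1), and COL5A3 was separate. None of these chains was called by limma, with log2 fold changes of -0.25 (95% interval -0.63 to 0.13, adjusted p = 0.275), 0.21 (adjusted p = 0.296) and 0.58 (0.13 to 1.02, unadjusted p = 0.0177, adjusted p = 0.0572). After median-ratio scaling COL5A1 was called lower (log2 fold change -0.61, adjusted p = 0.0388), COL5A2 turned to -0.15 and COL5A3 was at 0.23. With rescaling to TPM, COL5A2 was at -0.05.

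The remaining fibrillar members are best known from cartilage. COL27A1 was at 13.1, 12.1 and 11.4 FPKM in the NC libraries and at 12.5, 19.5 and 13.6 in the HFCF libraries, and was not called (log2 fold change 0.29, adjusted p = 0.309). COL11A1, the α1 chain of type XI collagen, was at 0.272, 0.120 and 0.469 FPKM in the NC libraries and at 0.556, 1.12 and 0.617 in the HFCF libraries. The COL11A1 values did not overlap, and its log2 fold change was 1.21 (95% interval 0.14 to 2.28, unadjusted p = 0.0323, adjusted p = 0.0868). It was 0.45 with a pseudocount of 1, 0.66 after quantile normalization and 1.54 without NC3, and COL11A1 was called in 0 of 14 alternatives. COL11A2, the α2 chain, was below the filter, at 0.0270, 0.0234 and 0.00633 FPKM in the NC libraries and at 0.0808, 0.0704 and 0.0770 in the HFCF libraries. With no filter, COL11A2 was called higher (log2 fold change 0.57, adjusted p = 0.0471), at levels under the pseudocount of 0.1 in every library. COL2A1, the main chain of cartilage fibrils, was between 0.0204 and 0.141 FPKM in the 6 libraries and was not tested. Of 8 fibrillar members tested none was called in either direction, against 28.9% of all tested genes. At an unadjusted p under 0.05 by limma there were 2 (COL5A3 and COL11A1). The share of all tested genes at that limit is not given here, but it cannot be below the 28.9% at an adjusted p under 0.05. The cartilage markers summed to 7.08 to 35.6 FPKM in the NC group and to 3.52 to 149.5 in the HFCF group, with COMP at 30.9 FPKM in NC3, 29.3 in HFCF2 and 145.5 in HFCF3 making up most of the highest sums. MATN1 was at 0 in every library, and 1 of 5 tested markers (HAPLN1) was called higher, against 22.8% of all tested genes. The HAPLN1 call held in 14 of 15 alternatives and was lost after quantile normalization (adjusted p = 0.118). ACAN was at -1.25 on the log2 scale without a call (adjusted p = 0.113).

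The FACIT collagens showed no called change. COL16A1, a chain that links fibrils to other matrix, was at 56.5, 46.2 and 75.7 FPKM in the NC libraries and at 37.0, 73.0 and 58.8 in the HFCF libraries. COL14A1, which binds to type I fibrils, was at 37.4, 59.9 and 23.6 FPKM in the NC libraries and at 35.9, 40.4 and 43.0 in the HFCF libraries. COL12A1, its close relative, was at 29.6, 24.9 and 33.0 FPKM in the NC libraries and at 23.0, 28.9 and 34.9 in the HFCF libraries. The groups overlapped in each of the 3 genes, and their log2 fold changes were -0.10, 0.08 and -0.02 (adjusted p = 0.812, 0.874 and 0.945). COL21A1, a chain of the vessel wall, had group means of 4.61 ± 1.55 and 3.42 ± 0.568 FPKM (log2 fold change -0.37, adjusted p = 0.381). COL19A1 was at 0.389 ± 0.320 and 0.737 ± 0.147 FPKM (log2 fold change 0.95, adjusted p = 0.177), and was called higher without NC3 (1.45, adjusted p = 0.0373). COL9A3, a cartilage chain, was below 1 FPKM in both groups, and COL9A1 and COL22A1 were near 0. In the 6 tested FACIT members, 0 had an adjusted or an unadjusted p under 0.05 by limma. Of all tested genes, 28.9% had an adjusted p under 0.05. The FACIT sum was 134.3 ± 4.14 FPKM in the NC group and 129.6 ± 25.7 in the HFCF group. As a share of all FPKM, the FACIT sum was lower in the HFCF group without overlap (0.0480% ± 0.00184 against 0.0388% ± 0.00795), as were the basement membrane sum (0.270% ± 0.0489 against 0.104% ± 0.0146) and the sum of the other class (0.339% ± 0.0289 against 0.254% ± 0.0539), while the fibrillar share overlapped.

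Among the other classes, COL6A1 had the highest level. COL6A1, a chain of the beaded microfilaments of type VI collagen, was at 521.1, 562.0 and 510.9 FPKM in the NC libraries and at 304.9, 429.1 and 516.2 in the HFCF libraries. HFCF3 lay within the NC range and HFCF1 was the lowest. COL6A1 was not called (log2 fold change -0.38, 95% interval -0.90 to 0.13, adjusted p = 0.227), but was called lower after quantile normalization (-0.79, adjusted p = 0.0335). Per 1000 FPKM of smooth muscle markers, COL6A1 was at 24.3, 32.3 and 33.6 in the NC libraries and at 39.6, 46.0 and 41.5 in the HFCF libraries, higher without overlap, so the direction turned with the denominator. COL6A3, a longer chain of the same trimer, was at 42.3, 43.1 and 16.9 FPKM in the NC libraries and at 43.2, 22.9 and 59.6 in the HFCF libraries (log2 fold change 0.31, adjusted p = 0.646, and -0.04 after median-ratio scaling). COL6A2, the other chain of that trimer, was not analysed here.

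COL6A5 and COL6A6, which can take the place of COL6A3, were low. COL6A5 was at 7.02 FPKM in HFCF2 and between 0.0565 and 1.01 in the other 5 libraries, with an interval of -3.26 to 3.24 for its log2 fold change of -0.01. The log2 fold change of COL6A5 was -1.76 without HFCF2 (adjusted p = 0.0638, limma) and 0.99 without HFCF1 (adjusted p = 0.645). COL6A6 had group means of 0.639 ± 0.572 and 0.839 ± 0.622 FPKM (log2 fold change 0.37, adjusted p = 0.76). With a library left out, this fold change ran from -0.25 (without NC1) to 1.07 (without HFCF3), with no call. COL15A1 and COL18A1 are proteoglycan-like collagens of the basement membrane zone, and COL18A1 is the source of endostatin. COL15A1 was at 146.0, 116.9 and 175.0 FPKM in the NC libraries and at 87.0, 128.5 and 129.0 in the HFCF libraries. COL18A1 was at 126.4, 84.3 and 135.3 FPKM in the NC libraries and at 69.1, 111.0 and 104.8 in the HFCF libraries. Both overlapped between the groups, with HFCF1 lowest among the HFCF libraries, and neither was called (log2 fold change -0.35 and -0.28, adjusted p = 0.276 and 0.44). Per 1000 FPKM of MYH11, both were higher in the HFCF group without overlap, at 63.7 to 81.8 against 105.6 to 138.9 for COL15A1 and 46.0 to 63.2 against 83.9 to 120.0 for COL18A1. Per 1000 FPKM of the 8 markers together, both overlapped.

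The other low members were COL28A1 (group means of 0.455 ± 0.0748 and 0.628 ± 0.165 FPKM, adjusted p = 0.407) and COL26A1, which was not tested and was at 0.0376 FPKM or less in the NC libraries and at 0, 0.296 and 0.213 in the HFCF libraries. A further 4 collagen rows were known by identifier or description but not by the naming rule. COL7A1, the chain of anchoring fibrils, was at 15.6, 15.9 and 15.9 FPKM in the NC libraries and at 8.67, 22.0 and 17.6 in the HFCF libraries, with no call (log2 fold change -0.08, adjusted p = 0.879). COL24A1 (a fibrillar chain), COL20A1 and COL9A2 (FACIT chains) had means below 1 FPKM in both groups, and none was called by limma (adjusted p = 0.343, 0.278 and 0.768). COL20A1, at a log2 fold change of -0.87, was called lower without NC3 (-1.49, adjusted p = 0.0369).

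Ratios between chains were taken within each library, so that a scaling factor common to all genes of a library cancels. COL4A1/COL4A2 was 0.971, 0.913 and 0.819 in the NC libraries and 1.26, 1.30 and 1.24 in the HFCF libraries. COL4A5/COL4A6 was 0.622, 0.696 and 0.574 in the NC libraries and 1.42, 1.11 and 1.26 in the HFCF libraries. In both type IV pairs, all HFCF ratios were above 1 and all NC ratios were below 1, and the log2 ratios differed by 0.49 and 1.0. COL5A1/COL5A2 was 2.31, 1.94 and 2.26 in the NC libraries and 1.47, 1.68 and 1.57 in the HFCF libraries, a difference of -0.46 in log2 ratio without overlap. Each of these 3 pairs gave p = 0.1 in an exact two-sided permutation test, the smallest p that this test can give with 3 against 3 libraries, and an adjusted p of 0.2 over the 6 pairs tested, so this test cannot reach 0.05 here. COL8A1/COL8A2 was 4.44, 18.9 and 6.83 in the NC libraries and 35.5, 16.2 and 19.0 in the HFCF libraries, with overlap (exact permutation p = 0.2, adjusted 0.3). COL1A1/COL1A2 was 1.55, 1.18 and 1.24 in the NC libraries and 1.33, 1.33 and 1.10 in the HFCF libraries (exact permutation p = 0.8). For COL3A1/COL1A1, the log2 ratio differed by -0.01 (exact permutation p = 1).

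**Figure D5:**
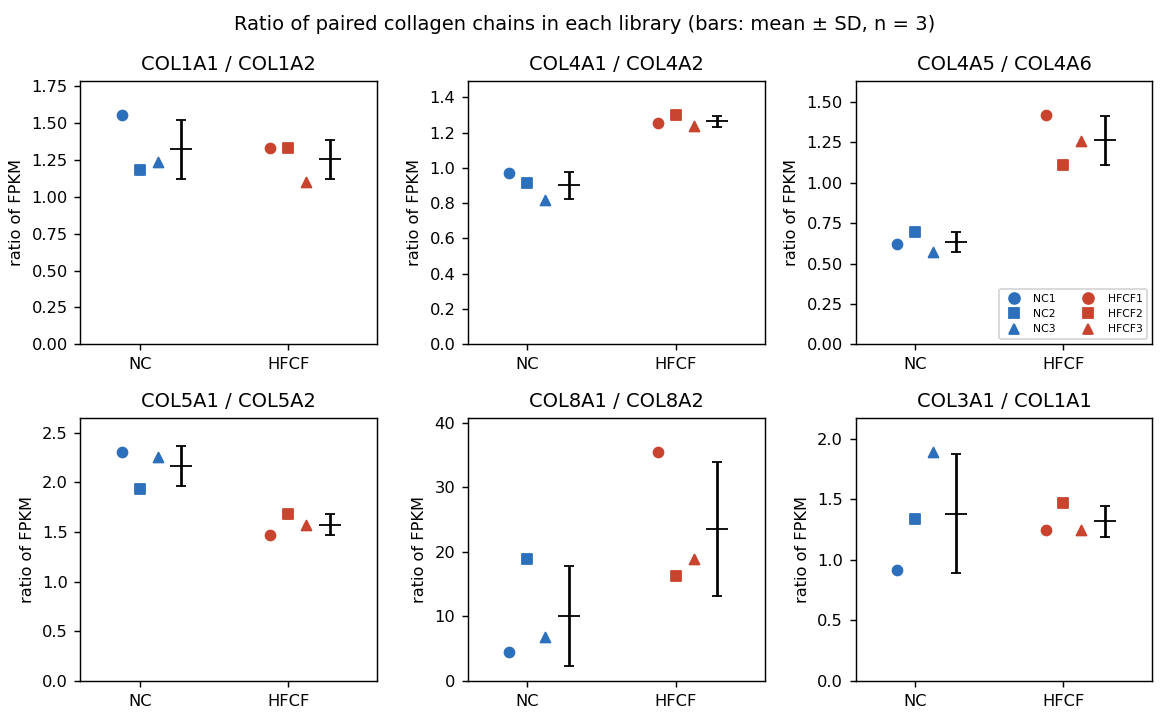
Ratio of FPKM between chains in each library (vertical axes from 0) for 6 pairs, with blue for NC, red for HFCF and bars for the group mean ± SD (n = 3). The ratios of COL4A1 to COL4A2 and of COL4A5 to COL4A6 are higher and that of COL5A1 to COL5A2 is lower in every HFCF library, and the other pairs overlap.

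Genes that modify, export, trim, crosslink and bind collagen were given as 6 lists, and 7 of their 44 tested genes were called, against 28.9% of all tested genes (22.8% called higher and 6.16% lower). For the hydroxylation of proline, which makes the collagen helix stable, 1 of 10 genes was called higher and 1 lower, with a list median of 0.17. Under each of the 3 scalings, 0 were called higher and 2 lower (P3H2 and CRTAP). CRTAP had group means of 32.8 and 23.5 FPKM, lower in the HFCF group without overlap. As deposited it was not called (adjusted p = 0.0521, limma), and under the scalings its adjusted p was 0.0104 (median-ratio), 0.0268 (quantile) and 0.0185 (TPM). P4HA1, a catalytic subunit of prolyl 4-hydroxylase, was at 2.95, 3.14 and 4.40 FPKM in the NC libraries and at 6.84, 6.04 and 5.34 in the HFCF libraries (log2 fold change 0.79, adjusted p = 0.0324), and was not called under the 3 scalings. P3H2, a prolyl 3-hydroxylase that acts on type IV collagen, was at 18.5, 14.1 and 10.8 FPKM in the NC libraries and at 8.47, 6.29 and 6.66 in the HFCF libraries. P3H2 thus fell without overlap, by 0.98 on the log2 scale (adjusted p = 0.0208), and was called in 11 of 15 alternatives. For the hydroxylation and glycosylation of lysine, 0 of 6 genes were called by limma, with 1 at an unadjusted p under 0.05 and log2 fold changes of 0.01 to 0.63.

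Among 6 chaperones and export factors, 2 were called higher and 0 lower, with a median of 0.44. SEC23A, a coat protein of the vesicles that carry procollagen out of the endoplasmic reticulum, was at 3.51, 4.96 and 4.95 FPKM in the NC libraries and at 7.77, 10.3 and 10.1 in the HFCF libraries (log2 fold change 1.06, adjusted p = 0.0118, called in 15 of 15 alternatives). FKBP14, a prolyl isomerase of the endoplasmic reticulum, was at 1.93, 2.60 and 1.32 FPKM in the NC libraries and at 4.09, 4.02 and 4.93 in the HFCF libraries (log2 fold change 1.16, adjusted p = 0.0207). Both genes were separate between the groups, and FKBP14 was not called after median-ratio scaling (adjusted p = 0.0681) or quantile normalization (adjusted p = 0.125). Of 8 genes of propeptide removal, TLL1, a relative of the procollagen C-proteinase BMP1, was called higher, at 0.235, 0.522 and 0.191 FPKM in the NC libraries and 3.55, 1.09 and 0.815 in the HFCF libraries (log2 fold change 2.01, adjusted p = 0.0396). Among the 5 crosslinking enzymes, LOX (lysyl oxidase) was called higher, at 11.5, 16.6 and 20.03 FPKM in the NC libraries and 22.1, 31.5 and 32.1 in the HFCF libraries (log2 fold change 0.85, adjusted p = 0.0425). LOX was not called under the 3 scalings, and TLL1 was called in 4 of 15 alternatives.

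Among 9 collagen receptors, ITGA1, the α1 integrin subunit that prefers type IV collagen and is carried by smooth muscle, was the 1 called, at 7.02, 8.51 and 6.45 FPKM in the NC libraries and 5.40, 4.47 and 4.57 in the HFCF libraries. All HFCF values were below all NC values, and the log2 fold change was -0.59 (adjusted p = 0.0467). ITGA1 was called in 6 of 15 alternatives, among them the 3 scalings, and was not called with a pseudocount of 1 (adjusted p = 0.0502), with no filter or without a variance trend. The list medians were 0.09 for propeptide removal, 0.29 for crosslinking and 0.33 for receptors, and the median of all tested genes was 0.32. Of the 7 called genes, SEC23A stayed called with each library left out, and the others did not. Among the fits that left out a library, P4HA1 was called only without NC3, P3H2 without NC3 or HFCF1, FKBP14 without NC2, NC3 or HFCF1, TLL1 without HFCF3, LOX without NC3 or HFCF1, and ITGA1 without HFCF1. Over the alternatives, adjusted p ran to at most 0.186 for P4HA1, 0.067 for P3H2, 0.125 for FKBP14, 0.124 for TLL1, 0.171 for LOX and 0.138 for ITGA1. TLL1 had its highest level in HFCF1, and its log2 fold change was 1.41 without that library and 0.98 with a pseudocount of 1. The smooth muscle and macrophage markers, given above, moved in the same libraries, and their part in these changes was not tested.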

How the data were processed

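The authors prepared mRNA libraries from abdominal aorta and sequenced them as paired-end reads. Per the submitters' processing notes, cutadapt 1.9, FastQC and HISAT2 were used, and the methods name StringTie for assembly. The deposited FPKM values are normalized for exon length and mapped reads, and the tool that computed them is not given in the sources used here. Strand use in counting is not given in the sources used here, and read counts were not used. A value of 0.0001 FPKM was read as 0.

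The members and gene lists were chosen with earlier results of these data known. Values were analysed as log2(FPKM + 0.1) over genes with a mean of at least 0.1 FPKM, with limma 3.58.1 in R 4.3.3 (a model with diet alone, trended eBayes, Benjamini-Hochberg adjustment), tested on simulated data. Chain ratios were compared by exact permutation. The depth of a library is known only relative to the others, so precision was taken from the spread among libraries.

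Values in each library were given for members that were called, had a group mean of at least 10 FPKM or belonged to a chain pair, and for called genes of the 6 lists. Other genes named, among them the called cell type markers and COL11A2, were chosen after their values were seen. The 5 collagen rows outside the rule were recognised by identifier or description. Schwann cell markers, 5 with a row, gave 0 calls by limma (1 at an unadjusted p under 0.05). The alternatives were other pseudocounts, filters and scalings, eBayes without a trend, a replicate block and each library left out. No coordinates or sequences are given.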

Additional observations from a re-analysis of the deposited data

How the results depend on the processing

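No tested member that was called changed direction under any alternative. COL4A2 stayed called in all 15. The count of members called higher, 1 as reported, was 0 with a pseudocount of 1, eBayes without a trend, quantile normalization, median-ratio scaling or rescaling to TPM, 2 by the fold limits of the study, and 0 to 2 with each library left out in turn. With no filter it was again 1, but COL11A2 in place of COL8A1. The count called lower, 3 as reported, was 5 after median-ratio scaling and 1 to 3 with a library left out. Fibrillar calls, 0 as reported, were 1 with no filter and 1 after median-ratio scaling. Calls with a library left out were 1 to 2 for basement membrane, 0 to 1 for FACIT and 0 to 1 for the other collagens. The other collagens had 1 call, not 2, with a pseudocount of 1, no filter, rescaling to TPM or eBayes without a trend. The 7 calls among processing and receptor genes became 4 with no filter, median-ratio scaling or quantile normalization, 10 with a mean of at least 1 FPKM, and 1 to 6 with a library left out. As reported, P4HA1, FKBP14, SEC23A, TLL1 and LOX were called higher, and P3H2 and ITGA1 lower. Under median-ratio scaling and under quantile normalization, only SEC23A was called higher, and P3H2, ITGA1 and CRTAP were called lower, so the main direction of these calls turned. Over all tested genes, 4453 calls became 2399 to 3562 with a library left out. The causes were not tested, except that leaving out a library lowers the number of samples.

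With a replicate block, 2772 genes, 3 processing and receptor genes, 4 members lower and 1 member higher were called, with COL13A1 added (adjusted p = 0.0388) and the call of COL4A1, which is no member, lost (adjusted p = 0.106). Same-numbered libraries did not deviate together (r = 0.021, -0.079 and -0.072 across genes, which are not independent replicates). These values gave no sign that the numbers pair the samples, but they cannot exclude a pairing that touches few genes.

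With 3 libraries per group, most intervals of the members span 0, and they leave room for changes that were not called. In simulated data with 3 libraries per group, 18 of 100 changed genes were recovered at a log2 change of 1, and 85 of 100 at a log2 change of 4. No other gene was changed among the 15384 simulated, whereas 4453 genes were called in the data. The adjusted p depends on that share, so these rates do not give the power for the members. Without read totals, the counting error of the low members is not known.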
